A study of Mus musculus with 8 samples.

Results

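The 30 genes described here make, regulate, take up or export cholesterol, and they are 30 of the 23358 gene rows in the deposited RPKM table (reads scaled to gene length and to library size). They were chosen by name, with results of the MSC against vehicle comparison already known: *Sqle*, a cholesterol synthesis enzyme, was among the few genes that had passed the test in it. For that reason the differences between the groups are given as a description of these samples and are not independent support for one. The list holds 19 synthesis enzymes, 4 regulators of SREBP-2, 5 genes of uptake and transport inside the cell, and 2 efflux transporters. All 30 had a mean of at least 1 RPKM over the 8 samples and were tested.

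RNA came from the outflow veins of arteriovenous fistulas (AVF), joins of carotid artery and jugular vein, in mice of strain C57BL6J that carried a chronic kidney disease model. In the MSC group (4 samples), 250000 MSCs (mesenchymal stem cells) of a gender-matched C57 mouse were laid on the adventitia, the outer coat of the vein, as soon as the fistula existed; the vehicle group (4 samples) is labelled vehicle, under the same protocol text. Both groups had the fistula made 28 days into kidney disease and the vein taken on day 3 of the fistula. Neither age nor the animals behind each sample are stated, so the p-values speak only of the spread among these samples, and RNA of laid-on cells and of the host vein cannot be told apart.

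Cholesterol is built from acetyl-CoA through mevalonate, farnesyl diphosphate, squalene and lanosterol. Transcription of most of these enzymes is driven by SREBP-2, a membrane-bound factor that Scap escorts out of the endoplasmic reticulum for cleavage when sterols are low and that the Insig proteins hold back when sterols are high. Cells take in lipoprotein cholesterol through receptors and lysosomes, and export it through Abca1 and Abcg1, which are induced by the oxysterol-sensing LXR receptors. In vessel walls this balance is known best from macrophages that load and unload cholesterol.

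Read totals, recovered from the steps of the RPKM values, ran from 26947202 to 38243252 reads assigned to genes per sample. The veins carried endothelial, smooth muscle and fibroblast markers (summed RPKM over 8 endothelial genes 356 to 583 in MSC veins and 472 to 586 in vehicle veins), and no gene on these 3 lists was at 0 in all samples of a group. Log2 fold changes were below 0 in 6 of 8 endothelial, 4 of 6 smooth muscle and 6 of 7 fibroblast genes, and none passed the limma adjusted threshold. Adipocyte markers differed between the groups: all 10 were below 0 in log2 fold change, none past the limma adjusted threshold (9 at an unadjusted p below 0.05), their summed level was 379 to 1890.4 RPKM in MSC veins and 3206 to 4831 RPKM in vehicle veins, and none was at 0. Macrophage markers had 11 of 12 log2 fold changes above 0 (median 0.23) and summed to 4572 to 8275 RPKM in MSC veins and 3689.7 to 4598 RPKM in vehicle veins. The largest parts of that sum were *Lyz2* (mean 2898 RPKM in MSC veins, 2006 RPKM in vehicle veins) and *Spp1* (1133 and 418 RPKM). Of all genes tested, 59.5% had a log2 fold change above 0. Of 8 neutrophil markers, the 6 tested had log2 fold changes above 0 (median 0.81), and all 8 summed to 583 to 1379 RPKM in MSC veins and 220.2 to 806 RPKM in vehicle veins. The untested *Camp* and *Ngp*, with means below 1 RPKM, averaged 0.283 and 0.0845 RPKM in MSC veins, against 0.385 and 0.195 RPKM in vehicle veins. Skeletal muscle markers had 8 of 8 above 0 (median 1.55), but the samples were uneven: 652, 638, 613 and 10.7 RPKM in MSC replicates 1 to 4, against 491, 54.7, 4.77 and 109.5 RPKM in vehicle replicates 1 to 4. The 8 cell cycle markers, all above 0 in log2 fold change, summed to 197 to 233 RPKM in MSC veins and 152 to 224 RPKM in vehicle veins. No macrophage, neutrophil, skeletal muscle or cell cycle marker passed the limma adjusted threshold. In that order, 4, 2, 0 and 4 had an unadjusted p below 0.05, and the groups overlapped in 10 of 12, 5 of 6, 8 of 8 and 7 of 8 tested. In bulk tissue, fewer cells of a type and less RNA per cell cannot be told apart, and the part of these cell types in the differences below was not tested. A fit with an adipocyte marker score as a covariate, given below, cannot test it, because the score separated the groups. That score, the mean log2(RPKM + 1) of the 10 markers, was 3.56 to 5.86 in MSC veins and 6.26 to 6.92 in vehicle veins.

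Synthesis enzymes were mostly higher in MSC veins. Of 19, 17 had a log2 fold change above 0, and the median was 0.33, against 0.04 over all 12129 genes tested, of which 59.5% were above 0. In 9 enzymes every MSC sample lay above every vehicle sample (*Mvk*, *Mvd*, *Idi1*, *Fdps*, *Fdft1*, *Sqle*, *Cyp51*, *Sc4mol* and *Hsd17b7*), and in 1, *Acat2*, every MSC sample lay below. Over all genes tested, the MSC samples lay wholly above in 5.61% and wholly below in 4.17%. A single enzyme, *Sqle*, passed the limma adjusted p threshold of 0.05, where 0.0247% of all genes (3) passed as higher and 0.206% (25) as lower; with quantile normalization that split was 33 and 96. At an unadjusted p below 0.05, 12 of the 19 were higher and 1 was lower, against 10.1% and 6.36% of all genes. Since this contrast was known when the list was made, nothing is read from these shares.

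**Figure D1:**
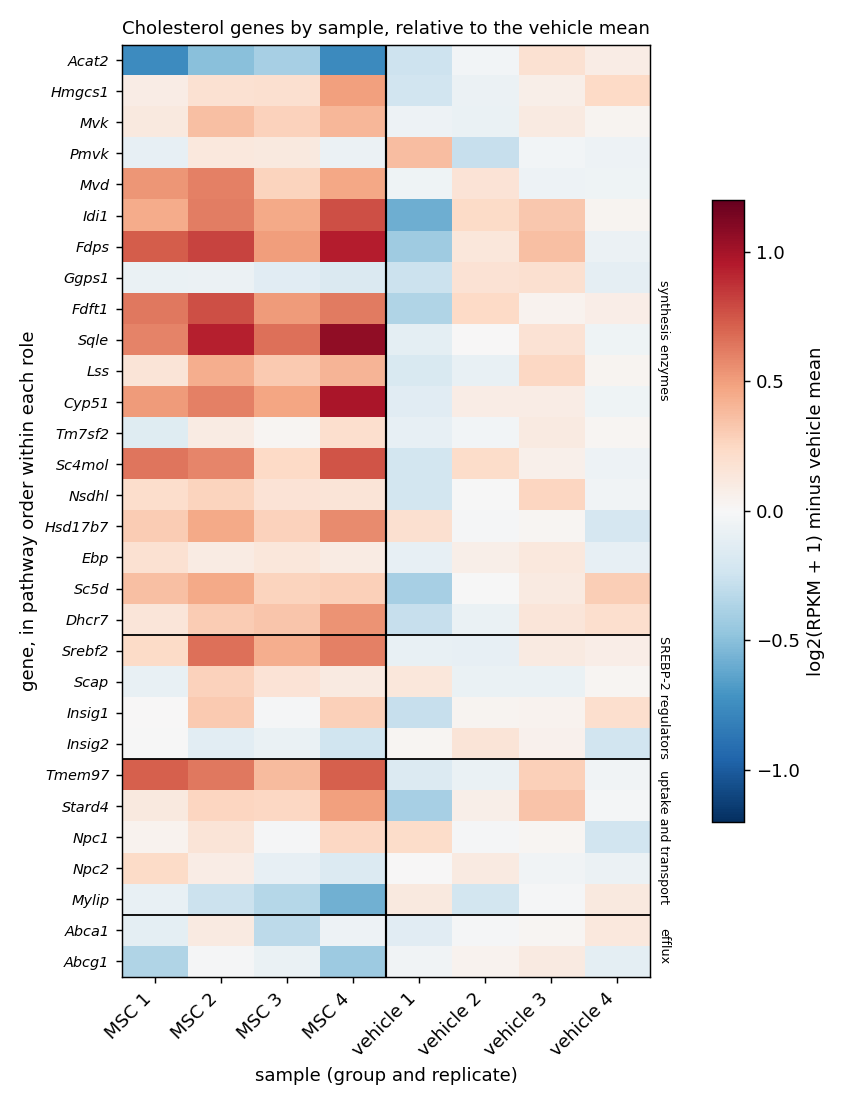
Each row is a gene and each column a sample (4 MSC left of the line, 4 vehicle right); colour gives log2(RPKM + 1) minus the mean of the vehicle samples, red for higher and blue for lower. Most enzyme rows are red in the MSC columns, deepest for *Sqle* and *Fdps*, *Acat2* is blue in all 4, and vehicle replicate 1 is the lowest vehicle sample in 15 of 19 enzymes.

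*Sqle*, squalene epoxidase, catalyses the first oxygen-dependent and a rate-controlling step of sterol synthesis. It lies on chromosome 15 at 59315077 to 59331192 (plus strand, GRCm38), with no exon shared with another annotated gene. It stood at 6.61, 8.60, 6.95 and 9.57 RPKM in MSC replicates 1 to 4, against 3.64, 4.05, 4.67 and 3.87 RPKM in vehicle replicates 1 to 4. The groups did not overlap, and the ratio of means was 1.96 (log2 fold change 0.81, SE 0.12, limma adjusted p = 0.0446). These values rest on 417 to 1181 reads per sample. The call lay close to the threshold. Leaving out any sample except MSC replicate 3 gave a limma adjusted p between 0.0654 and 0.134, with log2 fold changes of 0.73 to 0.88. Each of these fits also has fewer samples, so the loss of the call does not point at a particular sample. With the adipocyte marker score as a covariate the log2 fold change was 0.74 (limma adjusted p = 0.815).

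*Fdft1*, squalene synthase, makes the substrate of Sqle and commits farnesyl diphosphate to sterols. It stood at 7.61, 8.47, 6.90 and 7.52 RPKM in MSC veins, against 3.32, 5.55, 4.70 and 4.86 RPKM in vehicle veins, without overlap (log2 fold change 0.63, SE 0.13). An exon overlaps *Ctsb* on the opposite strand, and whether strand was used in counting is not stated, so its value is uncertain. *Cyp51*, the lanosterol demethylase, stood at 7.42, 8.01, 7.20 and 10.7 RPKM in MSC veins, against 4.39, 5.31, 5.31 and 4.73 RPKM in vehicle veins (log2 fold change 0.64, SE 0.12). MSC replicate 4 was the highest sample, and the groups were apart without it too. *Cyp51* likewise overlaps *Akap9* on the opposite strand.

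Before squalene, *Fdps*, which makes farnesyl diphosphate, stood at 21.9, 23.3, 18.6 and 25.5 RPKM in MSC veins, against 9.29, 14.2, 16.7 and 12.2 RPKM in vehicle veins (log2 fold change 0.74, SE 0.17). The groups were apart, with vehicle replicate 1 the lowest. *Mvd*, which decarboxylates mevalonate diphosphate to the isoprene unit, stood at 6.94, 7.33, 5.61 and 6.57 RPKM in MSC veins, against 4.30, 5.15, 4.27 and 4.28 RPKM in vehicle veins (log2 fold change 0.47, SE 0.09). *Idi1*, the isomerase of that unit, averaged 12.5 ± 1.45 RPKM in MSC veins and 8.30 ± 2.35 RPKM in vehicle veins (SD, n = 4 each). None of *Fdft1*, *Cyp51*, *Fdps*, *Mvd* and *Idi1* passed, with limma adjusted p of 0.0723, 0.0609, 0.0892, 0.075 and 0.185.

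*Acat2*, the cytosolic thiolase that joins acetyl-CoA at the start of the pathway, was the one enzyme whose MSC samples all lay lower. It stood at 5.09, 6.24, 6.78 and 5.06 RPKM in MSC veins, against 7.67, 9.04, 10.7 and 9.97 RPKM in vehicle veins, with no overlap (log2 fold change -0.61, SE 0.12, limma adjusted p = 0.0723). With the adipocyte covariate the log2 fold change was -0.28. The value is uncertain, because 39.1% of the 50-base words in its transcripts also occur in those of *Acat3*. *Acat3* itself averaged 0.794 ± 0.386 RPKM in MSC veins and 3.42 ± 1.81 RPKM in vehicle veins (SD, n = 4 each).

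The other steps after squalene were spread between these sizes. *Sc4mol*, the methylsterol monooxygenase also called *Msmo1*, had a log2 fold change of 0.56, and *Hsd17b7* and *Nsdhl*, which act with it in removing methyl groups, had 0.40 and 0.20. With the adipocyte covariate *Sc4mol* was at 0.27 and *Hsd17b7* at 0.25. *Lss*, lanosterol synthase, had 0.33, the desaturase *Sc5d* 0.34, the last-step reductase *Dhcr7* 0.33, the isomerase *Ebp* 0.13 and the sterol reductase *Tm7sf2* 0.04. All 11 genes from *Fdft1* to *Dhcr7* were thus above 0 (median 0.34), beside 59.5% of all genes tested. In 5 of them every MSC sample lay above every vehicle sample, beside 5.61% of all genes tested. The contrast was known when the list was made, so nothing is read from these counts. Without MSC replicate 4, *Tm7sf2* was at -0.01. In the 7 genes up to *Fdps* the median was 0.29, with the mevalonate kinase *Mvk* at 0.29, the next kinase *Pmvk* at 0.02 and *Hmgcs1* at 0.24. *Hmgcs1*, which forms a precursor of mevalonate and was the most abundant enzyme, stood at 22.0, 23.5, 23.8 and 29.4 RPKM in MSC veins, against 17.4, 19.6, 21.7 and 24.5 RPKM in vehicle veins, and the groups overlapped through vehicle replicate 4. *Pmvk* kept its direction in 12 of 19 alternative fits. It was below 0 with upper quartile scaling, with quantile normalization and with voom on the recovered reads. It was also below 0 without MSC replicate 2 or 3 and without vehicle replicate 2 or 4. *Ggps1*, which diverts farnesyl diphosphate to protein prenylation, had -0.11.

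**Figure D2:**
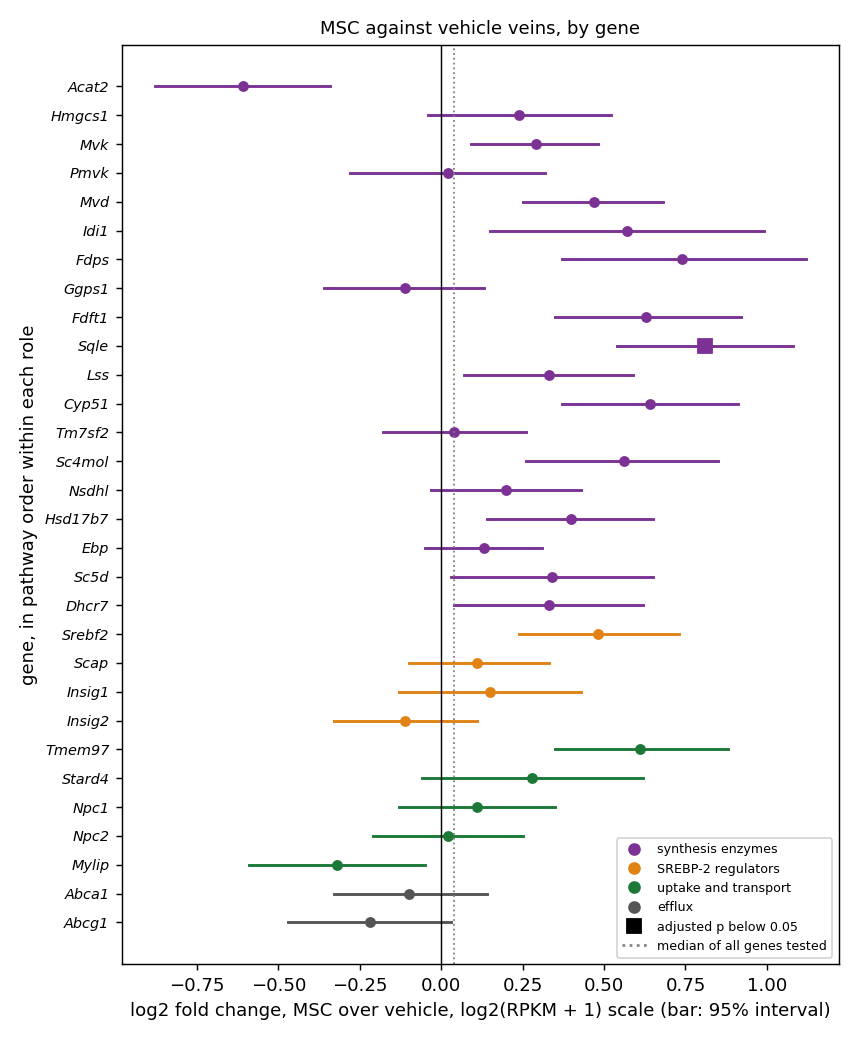
Points are log2 fold changes of MSC over vehicle veins on the log2(RPKM + 1) scale with 95% intervals, in pathway order within each role; the square marks the gene past the adjusted threshold and the dotted line the median of all genes tested (0.04). *Sqle* lies furthest to the right at 0.81 and *Acat2* furthest to the left at -0.61, and the 2 efflux genes lie left of 0.

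**Figure D3:**
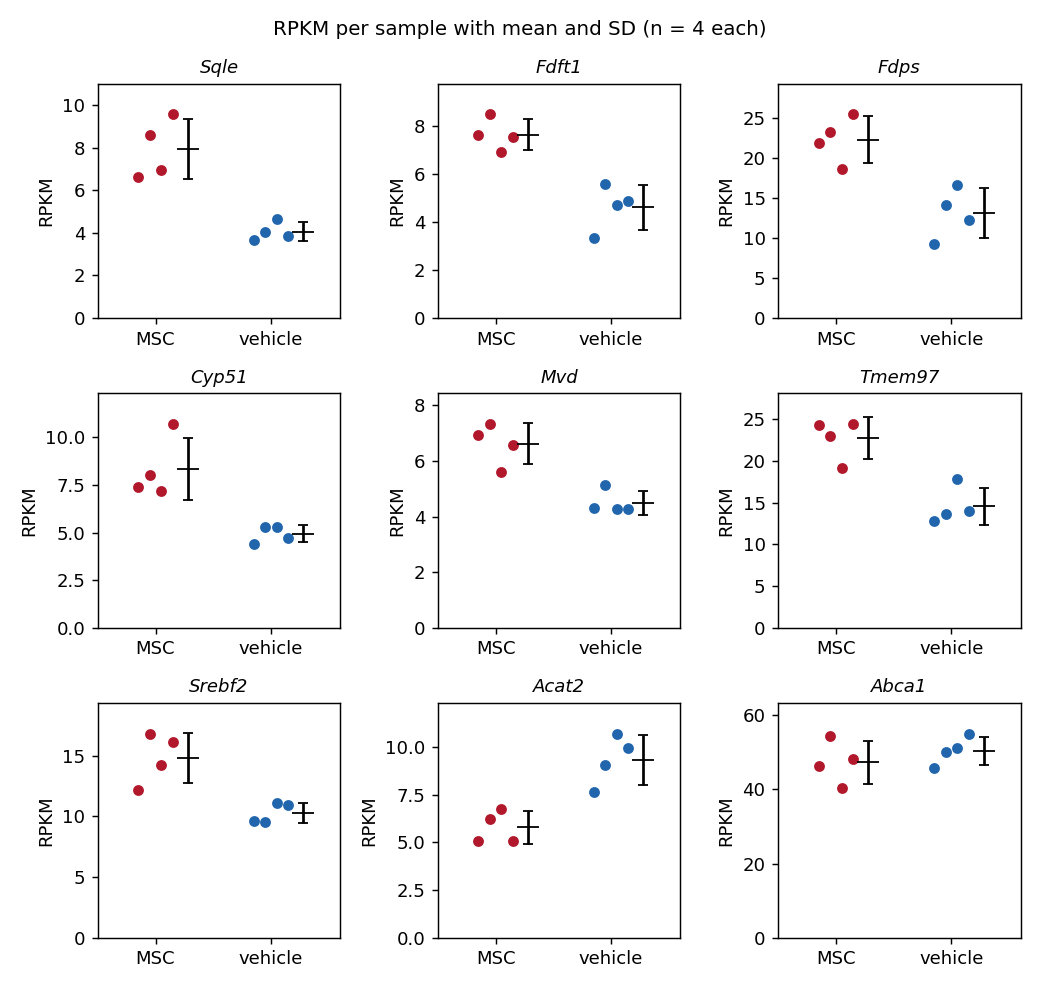
RPKM of 9 genes in each of 4 MSC samples (left) and 4 vehicle samples (right), with mean and SD; axes start at 0. The groups are apart in 8 panels and overlap for *Abca1*, and MSC lies below vehicle for *Acat2*.

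Of the SREBP-2 regulators, *Srebf2*, the gene of SREBP-2 itself, stood at 12.2, 16.8, 14.2 and 16.1 RPKM in MSC veins, against 9.61, 9.54, 11.1 and 10.9 RPKM in vehicle veins. No samples overlapped (log2 fold change 0.48, SE 0.11, limma adjusted p = 0.09). *Insig1*, which retains SREBP-2 and is itself an SREBP target, stood at 11.9, 15, 11.7 and 14.6 RPKM in MSC veins, against 9.60, 12.1, 12.2 and 13.8 RPKM in vehicle veins, and the groups overlapped (log2 fold change 0.15, 95% interval -0.13 to 0.43). The escort gene *Scap* had 0.11 (95% interval -0.10 to 0.33) and *Insig2*, the other retention protein, -0.11 (95% interval -0.33 to 0.11). Both had overlapping groups. The median of the 4 was 0.13. With the adipocyte covariate *Srebf2* was at 0.59, *Scap* at 0.28, *Insig1* at 0.18 and *Insig2* at -0.13.

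SREBP-2 is known to act with NF-Y, which binds CCAAT boxes, and the promoters of the genes are shown for these letters. RefSeq promoters on GRCm38.p6 (250 bases before to 50 after the start; the first listed where a gene has several) were matched for 24 of the 30 genes, 16 of them synthesis enzymes. The letters CCAAT, on either strand, occurred in 14 of the 16 (87.5%), against 37.9% of all 27025 promoters and 38.7% of the 8621 belonging to genes tested. The letters CACNCCAC, the core of a sterol response element, occurred in 2 of the 16 (12.5%), those of *Hmgcs1* and *Acat2*, against 6.12% of all promoters. GGGCGG, a GC box, occurred in 14 (87.5%), against 35.9% of all promoters and 65.1% of those of genes tested. A match is a description of letters and not a site.

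The windows below run from 150 bases before to 10 bases from the start, 5′ to 3′ on the gene's own strand, for 8 genes picked with their expression values and their boxes known: 6 with the box, and *Acat2* and *Abca1*, without it, to show both kinds of sequence. Capitals mark CCAAT or its reverse complement ATTGG, and in *Acat2* the reverse complement of CACNCCAC; GC boxes are not marked. Positions on GRCm38.p6 are Mvd chr8:122443413-122443572 (minus strand), Idi1 chr13:8885456-8885615 (plus strand), Cyp51 chr5:4104688-4104847 (minus strand), Sc4mol chr8:64733569-64733728 (minus strand), Srebf2 chr15:82147119-82147278 (plus strand), Tmem97 chr11:78550726-78550885 (minus strand), Acat2 chr17:12960716-12960875 (minus strand) and Abca1 chr4:53159886-53160045 (minus strand).
Mvd: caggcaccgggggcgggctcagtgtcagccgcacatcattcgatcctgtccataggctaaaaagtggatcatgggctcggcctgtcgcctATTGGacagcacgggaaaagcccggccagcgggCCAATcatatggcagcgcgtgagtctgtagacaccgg
Idi1: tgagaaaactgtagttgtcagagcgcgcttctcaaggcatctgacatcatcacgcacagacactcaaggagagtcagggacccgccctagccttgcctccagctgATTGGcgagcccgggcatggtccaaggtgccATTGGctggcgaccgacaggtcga
Cyp51: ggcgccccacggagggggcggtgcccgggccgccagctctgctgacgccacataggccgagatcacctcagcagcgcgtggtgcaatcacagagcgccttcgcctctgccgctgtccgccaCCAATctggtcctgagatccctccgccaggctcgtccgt
Sc4mol: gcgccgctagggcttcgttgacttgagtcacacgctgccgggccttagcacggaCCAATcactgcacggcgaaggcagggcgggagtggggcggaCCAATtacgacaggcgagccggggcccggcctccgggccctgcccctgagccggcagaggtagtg
Srebf2: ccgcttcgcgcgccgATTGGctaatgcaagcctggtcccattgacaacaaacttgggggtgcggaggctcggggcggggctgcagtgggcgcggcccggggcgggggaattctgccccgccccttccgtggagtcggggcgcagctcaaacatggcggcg
Tmem97: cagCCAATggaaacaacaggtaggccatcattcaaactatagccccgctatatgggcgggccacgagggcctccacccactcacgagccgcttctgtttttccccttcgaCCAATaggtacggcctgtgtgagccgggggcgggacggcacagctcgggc
Acat2: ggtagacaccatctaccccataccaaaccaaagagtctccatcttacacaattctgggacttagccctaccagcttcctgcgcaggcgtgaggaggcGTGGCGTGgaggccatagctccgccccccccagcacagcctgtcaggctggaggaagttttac
Abca1: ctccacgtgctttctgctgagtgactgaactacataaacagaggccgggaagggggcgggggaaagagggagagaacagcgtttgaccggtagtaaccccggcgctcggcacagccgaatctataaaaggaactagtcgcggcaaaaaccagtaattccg

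Since the 8 were picked, nothing about expression is read from them. In these windows the box occurred in *Mvd*, *Idi1*, *Sc4mol* and *Tmem97* in 2 places and *Cyp51* and *Srebf2* in 1. The nearest lay 14 bases before the start in *Idi1*, 27 in *Mvd*, 29 in *Cyp51*, 40 in *Tmem97*, 55 in *Sc4mol* and 135 in *Srebf2*. Of all 24 promoters matched, 20 held the box in their 300 bases (83.3%). Among these, the groups overlapped for *Hmgcs1*, *Pmvk*, *Ggps1*, *Lss*, *Tm7sf2*, *Nsdhl*, *Ebp*, *Sc5d*, *Insig1*, *Insig2*, *Npc2* and *Mylip*. The 4 without the box were those of *Acat2* and *Abca1*, with log2 fold changes of -0.61 and -0.10, and of *Dhcr7* and *Scap*, with 0.33 and 0.11. Whether the box goes with the differences was not tested.

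Among the uptake and transport genes, *Tmem97*, a sterol-regulated membrane protein that lowers Npc1, stood at 24.3, 23.0, 19.1 and 24.4 RPKM in MSC veins, against 12.8, 13.6, 17.8 and 14.0 RPKM in vehicle veins. The groups did not overlap, though MSC replicate 3 and vehicle replicate 3 came close (log2 fold change 0.61, SE 0.12, limma adjusted p = 0.0679). Of its transcripts' 50-base words, 20.8% also occur in *Gm5809*. With the adipocyte covariate its log2 fold change was 0.40. *Mylip*, a ubiquitin ligase that removes lipoprotein receptors and is induced by LXR, stood at 18.1, 16, 15 and 12.6 RPKM in MSC veins, against 21, 16.5, 19.1 and 21.1 RPKM in vehicle veins. The groups overlapped through MSC replicate 1 and vehicle replicate 2 (log2 fold change -0.32, SE 0.12, limma adjusted p = 0.239).

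*Stard4*, a cytosolic sterol carrier, stood at 7.29, 8.18, 8.12 and 9.80 RPKM in MSC veins, against 4.81, 7.07, 8.74 and 6.55 RPKM in vehicle veins, with overlap (log2 fold change 0.28). The lysosomal exporters *Npc1* and *Npc2*, which pass cholesterol out of lysosomes, had 0.11 and 0.02. *Npc2* was the most abundant of the 30, at 127, 115, 101 and 96.1 RPKM in MSC veins, against 108, 116, 105 and 103 RPKM in vehicle veins, with overlap (95% interval of the log2 fold change -0.21 to 0.25). *Npc2* kept its direction in 11 of 19 alternative fits. It was below 0 with upper quartile scaling, quantile normalization, sample weights, voom on the recovered reads and the adipocyte covariate. Without MSC replicate 1 or 2 or vehicle replicate 4 it was also below 0. *Npc1* was below 0 with the adipocyte covariate, at -0.05. The median of the 5 uptake and transport genes was 0.11, and -0.05 with that covariate.

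Neither efflux gene stood apart. *Abca1*, which loads cholesterol onto apolipoprotein, stood at 46.4, 54.3, 40.3 and 48.3 RPKM in MSC veins, against 45.8, 50, 51.2 and 55.0 RPKM in vehicle veins (log2 fold change -0.10, 95% interval -0.33 to 0.14). *Abcg1*, which passes cholesterol to lipoprotein particles, stood at 10.4, 13.5, 12.8 and 9.79 RPKM in MSC veins, against 13.2, 14.1, 14.8 and 12.5 RPKM in vehicle veins (log2 fold change -0.22, 95% interval -0.47 to 0.03). The groups overlapped in both. The median of the pair was -0.16, and with the adipocyte covariate *Abcg1* was at 0.06.

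Levels per gene length ranged widely across the pathway. In vehicle veins *Npc2* (108 ± 5.87 RPKM) and *Abca1* (50.5 ± 3.80 RPKM) led, each with a range that did not reach the next gene, and *Hmgcs1* led the enzymes at 20.8 ± 3.00 RPKM (SD, n = 4 each). By mean RPKM *Sqle* was 19th of 30 in MSC veins and 26th in vehicle veins, and *Acat2* was 26th in MSC veins and 14th in vehicle veins. The lowest were *Dhcr7*, *Lss*, *Tm7sf2* and *Hsd17b7*, at 3.22, 2.82, 2.10 and 1.85 RPKM in MSC veins and 2.36, 2.05, 2.01 and 1.17 RPKM in vehicle veins. Of the 29 neighbouring pairs in the vehicle order, 25 had overlapping ranges, so most of the order is not resolved beyond the spread.

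**Figure D4:**
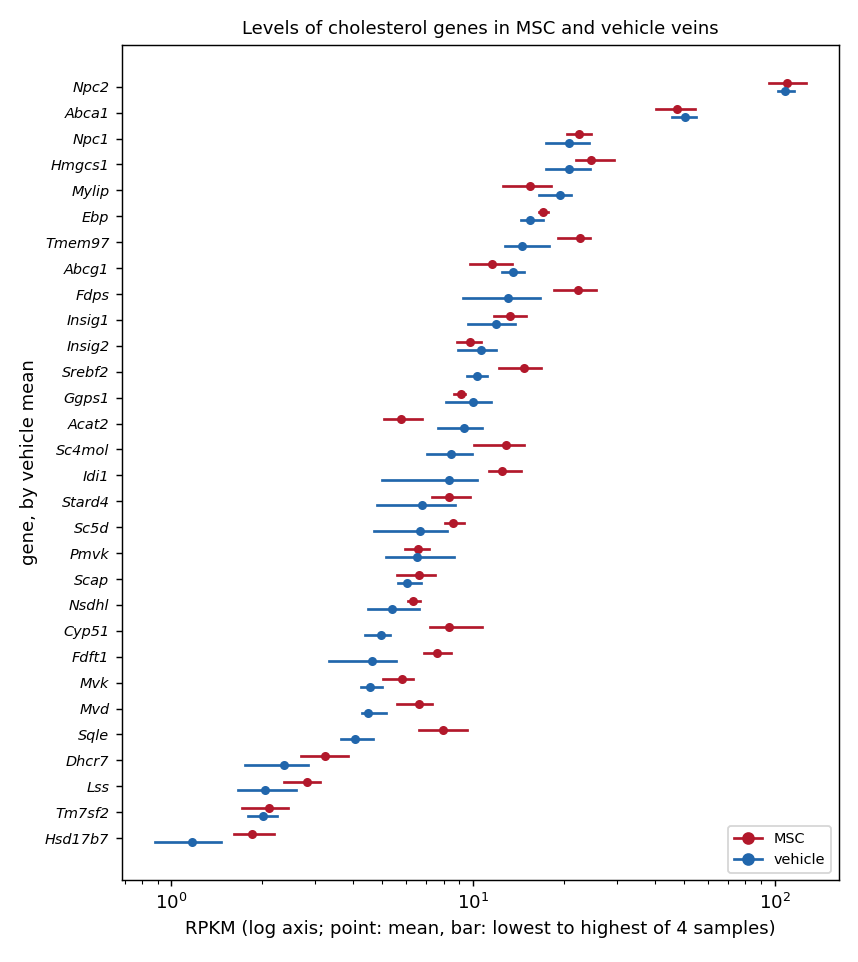
Mean RPKM (points) and the lowest to highest of 4 samples (bars) on a log axis, MSC above vehicle for each gene, ordered by the vehicle mean. *Npc2* and *Abca1* stand clear of the rest in both groups, and the bars of most neighbours overlap.

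Samples also differed within their group. Vehicle replicate 1 was the lowest vehicle sample in 15 of the 19 enzymes and vehicle replicate 3 the highest in 10. MSC replicate 4 was the highest MSC sample in 10, while MSC replicates 1 and 3 were the lowest in 8 and 7. The mean of log2(RPKM + 1) over the enzymes was 2.99, 3.13, 3.00 and 3.16 in MSC replicates 1 to 4, and 2.57, 2.79, 2.89 and 2.76 in vehicle replicates 1 to 4. The summed cell cycle markers were 197, 213, 226 and 233 RPKM in MSC replicates 1 to 4, and 152, 172, 224 and 161 RPKM in vehicle replicates 1 to 4, so that vehicle replicates 1 and 3 were lowest and highest in both measures, and MSC replicates 1 and 4 likewise. Vehicle replicates 1 and 3 were also lowest and highest in the summed macrophage and smooth muscle markers. In MSC veins the lowest and highest were replicates 3 and 1 for macrophage markers and replicates 2 and 4 for smooth muscle markers. The part of any of these markers in the enzyme levels was not tested. Without vehicle replicate 1, the log2 fold change was 0.37 for *Idi1*, 0.15 for *Stard4*, 0.21 for *Sc5d*, 0.13 for *Nsdhl*, 0.06 for *Insig1* and -0.20 for *Ggps1*. Without MSC replicate 4, that of *Hmgcs1* was 0.15, and without MSC replicate 3, that of *Abca1* was -0.02. Without vehicle replicate 1, the median over the enzymes was 0.27 and 17 were above 0; over all settings tried, the median ran from 0.27 to 0.44.

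A further 86 genes of the wider pathway, in 8 lists, were looked up in the same fit, and 83 were tested; the pair with the smallest p in each list is named. None passed in limma at the adjusted threshold; at an unadjusted p below 0.05, 10 of the 83 were higher and 13 lower, against 10.1% and 6.36% of all genes, and voom on the recovered reads called 0. Their median log2 fold change was 0.02, near the 0.04 of all genes. Among SREBP processing and degradation factors (13 tested, median 0.02), *Rnf145*, a ubiquitin ligase that acts on Scap, had 0.31 (limma adjusted p = 0.183) and *Srebf1*, the gene of SREBP-1, had -0.51 (limma adjusted p = 0.225). Accessory genes of synthesis (7 tested, median -0.02) were led by *0610007P14Rik*, also called *Erg28*, a scaffold of the methyl-removing enzymes, at 0.30, and by the electron donor *Por* at -0.26.

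Of the 10 LXR and oxysterol genes (median 0.09), *Arl4c*, an LXR-induced GTPase, had 0.61 (limma adjusted p = 0.0723) and *Nr1h3*, which encodes LXR-alpha, -0.50 (limma adjusted p = 0.244). Receptors of lipoproteins (9 tested, median -0.06) were led by *Cd36*, at 98.7 ± 19.6 RPKM in MSC veins and 161 ± 7.65 RPKM in vehicle veins (n = 4 each, SD), a log2 fold change of -0.72 with a limma adjusted p of 0.0572, and by *Scarb1*, a receptor of high-density lipoprotein, at -0.40. *Cd36* is also abundant in adipocytes, whose summed markers were lower in MSC veins, and the part of any cell type in its level was not tested. Among sterol ester genes (6 tested, median 0.15), *Lipe*, the hormone-sensitive lipase that is itself an adipocyte marker, had -1.85 and *Soat1*, which esterifies cholesterol, 0.21. Sterol transfer proteins (14 tested, median -0.04) were led by *Scp2*, a peroxisomal thiolase and sterol carrier, at -0.68 and *Osbpl1a*, an oxysterol-binding family member, at -0.27. The other isoprenoid branches (12 tested, median 0.03) were led by *Rabggta*, which prenylates Rab proteins, at 0.27 and the prenyl-protein protease *Rce1* at 0.21. None of these passed.

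The 12 fatty acid genes that SREBP factors also drive divided in direction: 5 were above 0 and 7 below, with a median of -0.52. *Fads1*, a fatty acid desaturase, had 0.42 (limma adjusted p = 0.108) and *Acaca*, the acetyl-CoA carboxylase that starts fatty acid synthesis, -0.80 (limma adjusted p = 0.111), and neither passed. Whether this list differed from the cholesterol enzymes was not tested, and the summed adipocyte markers were also lower in MSC veins.

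**Figure D5:**
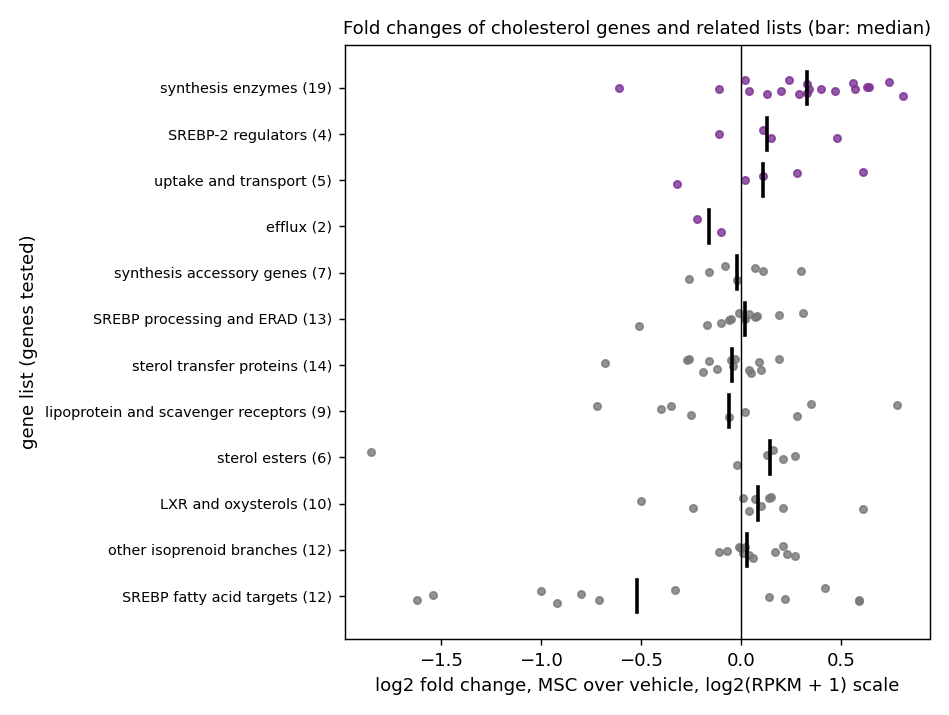
Each point is the log2 fold change of a gene, MSC over vehicle, in the 4 groups of cholesterol genes (purple) and 8 related lists (grey), with the number tested and a bar at the median. The synthesis enzymes have a median of 0.33, the related lists run from -0.52 to 0.15, and the fatty acid genes spread from -1.62 to 0.59.

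Exons of 8 of the 30 genes overlap a gene on the opposite strand in GENCODE M21 (*Hmgcs1*, *Idi1*, *Ggps1*, *Fdft1*, *Lss*, *Cyp51*, *Scap* and *Npc1*) and those of 2 a gene on the same strand (*Fdps* and *Tm7sf2*). Over 10% of 50-base words were shared with another gene in 4 (*Acat2*, *Idi1*, *Fdps* and *Tmem97*). Values of these genes are uncertain to that extent.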

How the data were processed

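The authors deposited RPKM values, 1 column per sample for 8 samples, made on build mm10 per the submitters' processing notes; libraries came from 0.5 µg of RNA with the TruSeq V2 kit, per the labels' protocols. The sources used here name no aligner, counting tool, annotation, strand setting or filter. All 16164 genes above 0 in all samples stepped in whole reads (tolerance 0.001 reads), which gave the read totals.

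RPKM are not counts, so limma 3.58.1 (R 4.3.3) was run on log2(RPKM + 1) with a variance trend over 12129 genes (mean over all samples at or above 1 RPKM), two-sided, Benjamini-Hochberg adjusted over all of them, threshold 0.05, no covariate. Fold changes on this scale understate those of low genes.

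The 30 genes, the related lists and the alternatives were chosen with earlier results of these data known. The 30 are all named; values per sample are given for those with the smallest unadjusted p in each role (up to 6 enzymes, 2 regulators, 3 uptake genes and both transporters), for any past the threshold and for the most abundant. In each related list the 2 smallest p are named. Some genes of the pathway are not reported here. Coordinates are those of GENCODE M21 (GRCm38), counted from 1, and intervals cover 95%. Alternatives covered pseudocount, filter, scaling, variance trend, sample weights, replicate block, each sample left out, voom on recovered reads and an adipocyte covariate.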

Additional observations from a re-analysis of the deposited data

Results flagged for a closer look

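*Mvd* in vehicle replicate 2 stood apart from its group: 5.15 RPKM, against 4.27 to 4.30 RPKM in the other vehicle samples, a gap of 0.969 of the group's range. The MSC samples, from 5.61 to 7.33 RPKM, were all above it. It was the single value past Dixon's limit among 60 groups of 4 (30 genes in 2 groups), where chance flags about 1 in 20.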

How the results depend on the processing

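The log2 fold change of *Sqle* was above 0 in all 19 alternatives. Of the 30 genes, 25 kept their direction in every alternative that tested them, 17 of the 19 enzymes among them. Calls were less stable. The count of genes past the limma threshold (28) became 10 with a pseudocount of 0.1, 1 with no filter on low values, 76 with upper quartile scaling, 129 with quantile normalization and 73 with sample weights. The count among the 30 genes (1) became 0 with a pseudocount of 0.1 (*Sqle* 0.94, limma adjusted p = 0.0569) and 0 with no filter, which tests more genes (*Sqle* 0.81, limma adjusted p = 0.104). It became 2, *Sqle* and *Acat2*, under upper quartile scaling and under quantile normalization; voom called 37 genes, *Sqle* among them.

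With the adipocyte score as a covariate, limma called 0 genes and 0 of the 30 (692 genes had an unadjusted p below 0.05). *Sqle* was at 0.74, and the median of the enzymes was 0.34, with 17 of 19 above 0. Over all genes tested the median was 0.10, against 0.04 without the score. *Fdft1*, *Sc5d* and *Lss* were at 0.67, 0.45 and 0.42, further from 0 than without the score. *Fdps*, *Cyp51* and *Mvd* were at 0.58, 0.44 and 0.36, nearer to 0. The other medians were 0.23 for SREBP-2 regulators, -0.05 for uptake and transport, which reversed, and -0.03 for efflux. Because the score separated the groups, the fit cannot part adipocyte content from treatment, and the cause was not tested. Leaving out 1 sample each gave 0 to 170 genes and 0 to 6 of the 30, with *Sqle* from 0.73 to 0.88 and the uptake and transport median from 0.03 to 0.15. Without MSC replicate 3 the 6 were *Acat2*, *Cyp51*, *Mvd*, *Sc4mol*, *Sqle* and *Tmem97*; without any other sample none was called. Without MSC replicate 4 or vehicle replicate 2, limma called 0 genes (1548 and 1512 had an unadjusted p below 0.05).

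With the replicate number as a block, limma called 0 genes and 0 of the 30 (1768 genes had an unadjusted p below 0.05), with *Sqle* at 0.81 (limma adjusted p = 0.11). The samples share only a number: deviations of same-numbered samples correlated at 0.143, -0.00282, -0.332 and -0.122 for numbers 1 to 4 across genes, and MSC replicate 4 went best with vehicle replicate 3 (0.435). At least 103 reads stood behind every value of the 30 genes; no interval for counting error was computed.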

Other observations

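With group means removed, the median Pearson correlation of log2(RPKM + 1) over the 171 pairs of enzymes was 0.40 across the 8 samples (median Spearman 0.33), beside 0.15 over 19999 pairs of any genes tested. Enzymes with the efflux genes had a median of 0.27 over 38 pairs. With vehicle replicate 1 dropped, the medians were 0.25 among the enzymes and 0.26 between enzymes and efflux genes. It was dropped after the group means were removed, so its share in the vehicle mean stayed in and its effect is not fully taken out. Covariation particular to the enzymes is not shown, and the pairs of any genes were not recomputed. *Sqle* with the other 18 enzymes had a median of 0.54, with that sample and with it dropped in the same way. The points share libraries and depth, so these are descriptions with no test.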
